A study of Mus musculus with 2 samples.

Results

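Alveolar macrophages called resting, from the absence of Mki67 and Top2a transcripts only, were examined in immune cells from mouse lungs with melanoma metastases. Members were single-cell barcodes (1 captured droplet or well each) chosen by their counts of unique molecular identifiers (UMIs, which each mark 1 captured RNA molecule). A member had at least 500 UMIs, under 20% of them mitochondrial, and a sum of at least 4 UMIs of Plet1, Car4, Krt79, Fabp1 and Ear1. It also had fewer than 5 UMIs of C1qa, C1qb and C1qc together or fewer than of those 5 genes, fewer than 2 UMIs of Cd3d, Cd3e, Cd3g and Trac together, and none of Cd79a, Mki67 or Top2a. The rule found 833 of 20364 kept barcodes: 477 of 10313 from C435A tumours (the C435A tumour library) and 356 of 10051 from WT tumours (the WT tumour library). Levels of those rule genes chose the members and are given below as description only.

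The C435A tumour library holds live CD45-positive, 7-AAD-negative cells sorted from lungs of C57 mice with metastases of B16F10, a mouse melanoma line, whose tumour cells carried the IRF7-C435A mutant, in which a cysteine of IRF7 is replaced by alanine. The WT tumour library is the same sort from lungs in which the B16F10 cells carried wild-type IRF7. IRF7 is a master switch of type I interferon genes, and the genotype is that of the tumour cells, not of the macrophages. The sources used here give neither the age of the animals, nor the number pooled, nor any clone of the tumour line. There was 1 library per genotype, so no difference below has a replicate check, no test between the genotypes was made, and every interval in brackets is a 95% interval for counting error only.

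Alveolar macrophages live on the air side of the lung, where they take up and break down surfactant, a lipid-rich film, and clear inhaled particles. GM-CSF and TGF-beta made in the lung set their identity through the transcription factor PPAR-gamma, and the cells renew themselves locally by division. Most of their distinguishing genes serve lipid handling, lysosomes and recognition of particles, and they are known to respond to type I interferons by inducing antiviral genes.

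By Chil3, the members fitted their label. Chil3, which encodes the secreted chitinase-like protein Ym1 and was not in the rule, is the independent marker (ENSMUSG00000040809, chromosome 3, 106147554 to 106167564, minus strand of GRCm38). It had 13990.3 UMIs per 1000000 UMIs (CPM) in members of the C435A tumour library and 11667 CPM in those of the WT tumour library. Chil3 UMIs were present in 99.4% of C435A members and 98.9% of WT members, against 24.2% and 29.1% of B cell barcodes of the same libraries, which should lack it. Thinned to 2000 UMIs a barcode, the shares were 99.3% and 97.4% of members, against 14.98% and 20.2% of B cell barcodes. Of 14 marker genes of C1q macrophages, Cd163 was the only 1 with no UMI in members of either library. These markers, which include the C1q genes capped by the rule, summed to 542 CPM in C435A and 652 CPM in WT members. Without thinning, 10 or more of their UMIs were held by 32 of 477 C435A and 75 of 356 WT members. C435A members were shallower, with a median of 6883 UMIs and 2645 genes per barcode, than WT members, with 11142.0 UMIs and 3383 genes. They held 3582272 UMIs in C435A and 4182303 UMIs in WT, and medians of 1.93% and 1.51% mitochondrial UMIs. The libraries shared 24 barcode sequences, none of them a member of both.

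Of the rule genes, Plet1, which encodes a surface protein, had a UMI in 98.7% of C435A members and 97.8% of WT members. All 5 rule genes were present in 31.9% of C435A members and 24.2% of WT members. Fabp1, a fatty acid-binding protein, had 424 CPM in C435A members and 159.0 CPM in WT members. Ear1, a ribonuclease of the eosinophil-associated family, had 738 CPM in C435A and 293 CPM in WT members. Car4, a carbonic anhydrase of the cell surface, had 618 CPM in C435A and 979 CPM in WT members. These genes therefore moved in different directions between the libraries, and the member count depends on all of them. Barcodes just inside the limit, with 4 or 5 UMIs of the rule genes, had 12998 CPM of Chil3 in C435A (34 barcodes) and 7746 CPM in WT (32 barcodes). Those just outside, with 2 or 3 UMIs, had 10781 CPM in C435A (27 barcodes) and 8853 CPM in WT (57 barcodes), so the limit cut through Chil3-rich barcodes and not between kinds of barcode. By the rule, members made up 4.63% [4.23, 5.05] of kept C435A barcodes and 3.54% [3.19, 3.92] of kept WT barcodes, which differ by 1.08 percentage points [0.54, 1.63].

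Resting members resembled dividing alveolar macrophage barcodes far more than the C1q macrophages of the same lungs. Dividing barcodes met the same rule but had a UMI of Mki67 or Top2a (133 in C435A and 151 in WT). C1q macrophage barcodes had at least 5 UMIs of the C1q genes and at least as many as of the rule genes (77 in C435A and 165 in WT). Both groups were cut from the same barcodes by the rule genes, so these ratios describe and test nothing. Against C1q macrophages, 12.2% of 9559 measured genes were at least 1.5-fold higher in members in both libraries and 8.49% were lower. Against dividing barcodes, 0.839% of 9777 genes were higher in both libraries and 5.95% were lower.

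The genes that stood furthest above the C1q macrophages, beside rule genes, included several that epithelial cells also use. Epcam, an adhesion protein of epithelia, had 67.5 CPM in C435A members against 1.52 CPM in C1q macrophages, and 28.7 against 0.485 CPM in the WT tumour library. Krt19, a keratin, had 359 against 4.57 CPM in C435A and 222 against 3.40 CPM in WT. Of 10 alveolar epithelial markers, which include Epcam, 3 had no UMI in C435A members and 2 had none in WT members. The list summed to 299 UMIs in C435A and 193 in WT members, of which Epcam had 242 and 120. Sftpc, the surfactant protein C gene, had 10 UMIs in all C435A members and 2 in all WT members, and Krt8 had none. The part of epithelial RNA in these levels was not tested. Cidec, which encodes a protein of lipid droplets, had 240.1 against 4.57 CPM in C435A and 99.0 against 2.43 CPM in WT. Perp, Cracd, Cpne5 and Slc6a4, the serotonin transporter gene, completed the genes named by the rule of size.

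On the other side stood Alox15, a lipoxygenase of resident macrophages of body cavities, with 0.279 CPM in C435A members against 233 CPM in C1q macrophages, and 1.20 against 369 CPM in the WT tumour library. Prg4, which encodes lubricin, had 0.279 against 274 CPM in C435A and 1.44 against 399 CPM in WT. Cd5l, Serpinb2, Ednrb, Fcrls and F5 were also far lower in members. Serpinb2 and Fcrls had no UMI in members of either library.

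Against the dividing barcodes, the genes furthest below were cell cycle genes beyond the 2 used by the rule. Ccna2, which encodes cyclin A2, had 2.51 CPM in C435A members against 97.7 CPM in dividing barcodes, and 0.956 against 116 CPM in the WT tumour library. Nusap1, Cenpf, Prc1, Knl1 and Hmmr, all of the mitotic apparatus, and the histone genes H1f5 and H2ac24 were lower in the same way. Aldoc, a glycolytic aldolase, was furthest above, with 80.4 against 28.2 CPM in C435A and 121 against 58.8 CPM in WT. Among the others above were Pnpla2, the main triglyceride lipase of lipid droplets, with 118 against 83.2 CPM in C435A and 78.7 against 53.2 CPM in WT, and Pirb, an inhibitory receptor. Dividing barcodes were 21.8% of alveolar macrophage barcodes in C435A and 29.8% in WT (-7.98 points [-13.1, -2.84]). Since 1 UMI of Mki67 or Top2a decides that share, deeper barcodes are called dividing more easily, and C435A barcodes were the shallower. The part of depth in that difference was not tested.

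**Figure D1:**
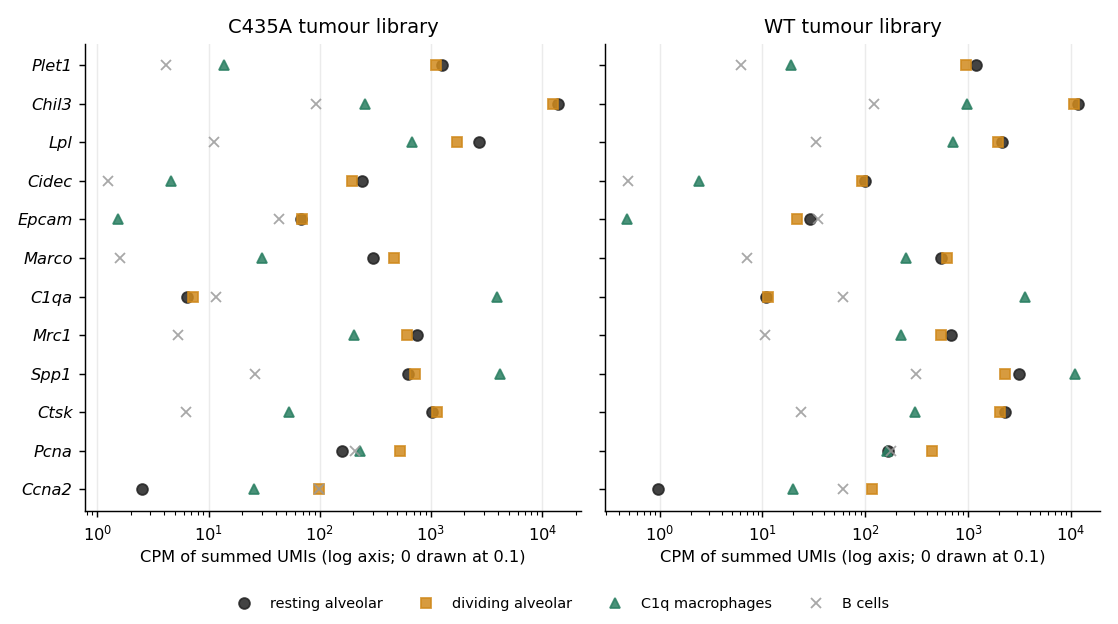
CPM (log axis) of 12 genes in the C435A tumour library (left) and the WT tumour library (right), with 1 point per kind of barcode from its summed UMIs. Plet1, Chil3, Cidec and Epcam lie higher in both kinds of alveolar barcode than in C1q macrophages, C1qa, which the rule caps, lies lower, and Ccna2 separates resting from dividing barcodes.

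Between the tumour genotypes, 10503 genes had at least 20 UMIs over the members of both libraries, and a gene that passed only through the library where it is high had to differ. Of these, 11.8% (1235 genes) were at least 1.5-fold higher in C435A members and 5.74% (603 genes) were at least 1.5-fold lower. The median gene had a log2 ratio of 0.12 (C435A over WT), so that gene lists are read against that value. TMM scaling moves every ratio by -0.12 and median of ratios scaling by -0.16, which turns the split into 822 higher and 867 lower, or 738 higher and 956 lower. The gene lists below were compared by their counts and medians only.

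**Figure D2:**
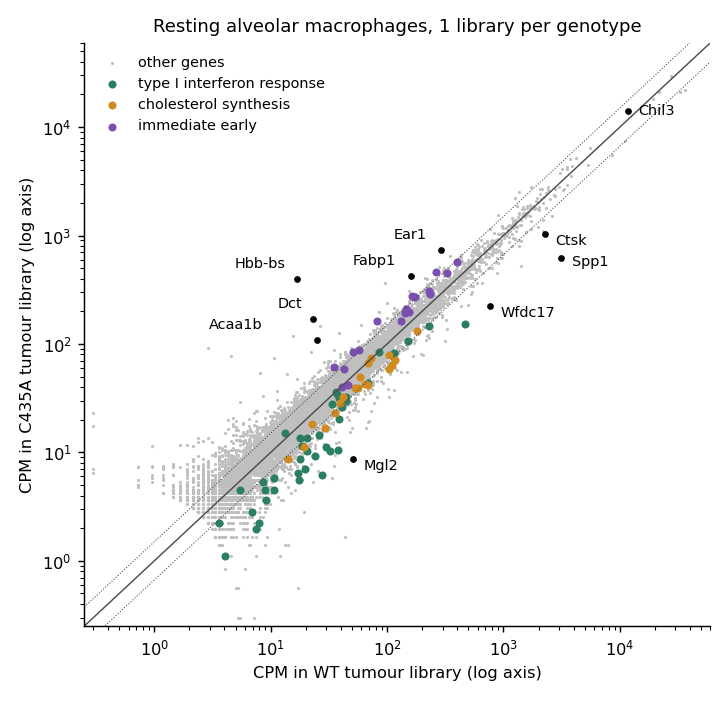
CPM of each of 10503 genes in members of the C435A tumour library (vertical, log axis) against the WT tumour library (horizontal, log axis), with 1 library each. The solid line marks equal levels and the dotted lines 1.5-fold. Type I interferon response genes (green) lie below the solid line with 1 exception, and Spp1 is among the points furthest below it.

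Identity genes of alveolar macrophages split between the libraries. Of 29 measured genes of that list, 6 were higher in C435A members and 5 lower, with a median log2 ratio of 0.18. Cidec had 240.1 CPM in C435A members and 99.0 CPM in WT members, a log2 ratio of 1.28 [1.11, 1.45]. Ear2, a further eosinophil-associated ribonuclease, had 2540.0 CPM in C435A and 1361 CPM in WT (0.90 [0.85, 0.95]). Ear1 and Ear2 are close paralogs whose reads could be split in counting. Pparg, the gene of PPAR-gamma itself, had 124 CPM in C435A and 77.7 CPM in WT (0.67 [0.46, 0.88]). Siglecf, a surface lectin used to sort alveolar macrophages, had 118 CPM in C435A and 79.6 CPM in WT (0.57 [0.35, 0.78]), just under 1.5-fold. Among the 5 lower genes, Marco, a scavenger receptor for particles and bacteria, had 303 CPM in C435A and 541 CPM in WT (-0.84 [-0.94, -0.73]). Fabp4 and Fabp5, fatty acid-binding proteins, were lower as well, at -0.62 [-0.72, -0.52] and -0.79 [-0.84, -0.75].

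Signalling genes behind this identity split as well. Of 20 measured genes of GM-CSF and TGF-beta signalling, 3 were higher and 2 lower in C435A members, with a median log2 ratio of 0.14. Over all 10503 measured genes, 11.8% were higher and 5.74% lower. Csf2ra, the alpha chain of the GM-CSF receptor, had 234 CPM in C435A and 221 CPM in WT (0.08 [-0.05, 0.22]). Tgfbr2, a receptor of TGF-beta, had 238 CPM in C435A and 197 CPM in WT (0.28 [0.14, 0.41]). Of the higher genes, Cish, a target of the STAT5 arm of GM-CSF signalling, had 38.5 CPM in C435A and 23.7 CPM in WT (0.70 [0.32, 1.09]). Of the 9 measured C1q macrophage markers other than C1qa, C1qb and C1qc, which the rule caps, 6 were lower in C435A members and none higher. They summed to 525 CPM in C435A and 624 CPM in WT. Of all 12 measured markers, 3 had a ratio above 0 and 9 below. In the stricter set defined below, Selenop had 300.5 CPM in C435A and 263 CPM in WT. Apoe had 145 CPM in C435A and 112 CPM in WT there.

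Cholesterol synthesis genes were lower in C435A members. Of 19 measured genes, 9 were at least 1.5-fold lower and none higher, and 18 had a ratio below 0, with a median of -0.52. Cyp51, which removes a methyl group from lanosterol, had 63.7 CPM in C435A and 111 CPM in WT (-0.80 [-1.04, -0.57]; ENSMUSG00000001467, chromosome 5, 4081145 to 4104746, minus strand). Idi1, an isomerase of the early pathway, had 58.6 CPM in C435A and 103 CPM in WT (-0.81 [-1.06, -0.57]). Msmo1, a methyl sterol oxidase, had 70.9 CPM in C435A and 117 CPM in WT (-0.72 [-0.95, -0.50]). Insig1, which holds the SREBP activator back, had 73.4 CPM in C435A and 72.7 CPM in WT (0.01 [-0.23, 0.26]). In dividing barcodes, where 12.6% of 9431 genes were higher and 6.98% lower, the same list had 1 higher and 1 lower of 19 and a median of -0.07. The difference between resting and dividing barcodes was not tested.

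Genes of lipid uptake and export differed in both directions. Abcg1, which exports cholesterol and is needed for surfactant clearance, had 1551 CPM in C435A and 895 CPM in WT (0.79 [0.73, 0.85]). Cd36, a receptor for fatty acids and oxidised lipoproteins, had 291 CPM in C435A and 172 CPM in WT (0.75 [0.61, 0.89]). Msr1, the class A scavenger receptor, had 32.1 CPM in C435A and 105 CPM in WT (-1.70 [-2.01, -1.40]). Over the 29 measured genes of surfactant and lipid uptake, storage and efflux, 5 were higher and 7 lower, with a median of -0.18. Acaa1b and Acot1, of fatty acid metabolism outside that list, were higher. Acaa1b, a thiolase of peroxisomes, had 109 CPM in C435A and 24.9 CPM in WT (2.14 [1.82, 2.46]), with UMIs in 206 C435A and 70 WT members. Acot1, an acyl-CoA thioesterase, had 55.0 CPM in C435A and 25.6 CPM in WT (1.10 [0.76, 1.46]). Both had under 1 CPM in B cell barcodes of either library. The 25 measured genes of fatty acid synthesis and oxidation had 2 higher, 3 lower and a median of 0.03.

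Lysosomal genes and those of lipid-associated macrophages were lower in C435A members. Of 22 measured genes of lysosomal proteases and lysozyme, 9 were lower and 1 higher, with a median of -0.54. Lyz2, the main macrophage lysozyme, had 22176 CPM in C435A and 36288 CPM in WT (-0.71 [-0.72, -0.70]). Ctsk, a collagen-degrading cathepsin, had 1030.0 CPM in C435A and 2259 CPM in WT (-1.13 [-1.19, -1.08]; ENSMUSG00000028111, chromosome 3, 95499256 to 95509362, plus strand). Thinned to 2000 UMIs, 50.5% of C435A members and 76.1% of WT members had a Ctsk UMI, against 1.16% and 4.18% of B cell barcodes. Of 16 measured lipid-associated genes, 8 were lower and none higher, with a median of -0.55. Trem2, a lipid receptor, had 81.5 CPM in C435A and 195 CPM in WT (-1.26 [-1.45, -1.06]), and Cd63, a tetraspanin of lysosomes, was lower at -0.96 [-1.04, -0.87]. Monocyte markers moved with these lists. Of 12 measured, 5 were lower and 1 higher, with a median of -0.50, and they summed to 1287 CPM in C435A and 1955 CPM in WT. None of the 12 was at 0 in either library. Without thinning, 10 or more of their UMIs were held by 156 of 477 C435A and 234 of 356 WT members, and WT members were deeper. In the stricter set defined below, 4 of 12 were lower and 2 higher, with a median of -0.11. There Fn1 had 835 CPM of a list sum of 1301 CPM in C435A, and 1415 of 1919 CPM in WT. Ly6c2 had 11.2 CPM in C435A and 13.3 CPM in WT. The part of monocyte markers in these results was not tested.

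Spp1, which encodes the secreted protein osteopontin, was furthest below by the naming rule (ENSMUSG00000029304, chromosome 5, 104435118 to 104441050, plus strand). It had 616 CPM in C435A members and 3143 CPM in WT members, a log2 ratio of -2.35 [-2.42, -2.29]. Levels in other barcodes moved with it: 4182 CPM in C435A and 10851 CPM in WT C1q macrophages, and 26.2 CPM in C435A and 308 CPM in WT B cell barcodes. Thinned to 2000 UMIs, 43.4% [38.8, 48.0] of C435A members and 68.4% [63.2, 73.2] of WT members had a Spp1 UMI, against 2.72% and 15.4% of B cell barcodes. At least 10 UMIs of 2000 were Spp1 in 11 of 461 C435A members and in 48 of 351 WT members. The part of free RNA in the Spp1 difference was not tested.

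Genes of iron and metal storage followed the same direction. Of 18 measured genes for iron, haem and antioxidants, 6 were lower and none higher, with a median of -0.37. Fth1, the ferritin heavy chain, had 21242 CPM in C435A and 33097 CPM in WT (-0.64 [-0.65, -0.63]). The metallothionein gene Mt1 had 1112 CPM in C435A and 2174 CPM in WT (-0.97 [-1.02, -0.91]). Slc7a11, the cystine importer, had 35.5 CPM in C435A and 72.0 CPM in WT (-1.02 [-1.33, -0.72]).

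Type I interferon response genes were lower in C435A members. Of its 44 genes, 40 were measured, of which 28 were at least 1.5-fold lower in C435A members and none higher, and 39 had a ratio below 0; the median was -0.85. The other kinds of barcode had negative medians as well. In dividing barcodes the median was -0.54, with 14 of 32 lower and 1 higher, beside 6.98% of 9431 genes lower and 12.6% higher. In C1q macrophages it was -0.72, with 26 of 42 lower and none higher, beside 11.9% of 8667 genes in each direction. In all other barcodes it was -0.42, with 17 of 44 lower and none higher, beside 7.66% of 17860 genes higher and 19.9% lower.

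Several of these genes carry a known interferon-stimulated response element in the promoter, and the sequences of 3 that were lower are shown for that reason. They are the 250 bases before the gene start in RefSeq (GRCm38.p6), 5′ to 3′ on the gene's strand, at chr8:71537473-71537722 for Bst2, chr4:156200819-156201068 for Isg15 and chr5:120777660-120777909 for Oas3, all on the minus strand. Capitals mark matches to GAAA, any 2 bases and GAAA again, searched on both strands; matches overlap in Bst2 (2 matches) and Isg15 (3 matches).

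Bst2: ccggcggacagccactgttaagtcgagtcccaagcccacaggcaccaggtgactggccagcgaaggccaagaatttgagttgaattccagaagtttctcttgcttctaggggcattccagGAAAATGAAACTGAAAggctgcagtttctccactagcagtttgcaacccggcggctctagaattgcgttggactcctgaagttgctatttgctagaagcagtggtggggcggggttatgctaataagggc
Isg15: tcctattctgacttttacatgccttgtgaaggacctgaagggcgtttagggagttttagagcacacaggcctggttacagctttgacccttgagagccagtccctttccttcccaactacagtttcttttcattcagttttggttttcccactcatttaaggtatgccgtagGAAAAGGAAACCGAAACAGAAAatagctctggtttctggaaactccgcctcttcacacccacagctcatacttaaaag
Oas3: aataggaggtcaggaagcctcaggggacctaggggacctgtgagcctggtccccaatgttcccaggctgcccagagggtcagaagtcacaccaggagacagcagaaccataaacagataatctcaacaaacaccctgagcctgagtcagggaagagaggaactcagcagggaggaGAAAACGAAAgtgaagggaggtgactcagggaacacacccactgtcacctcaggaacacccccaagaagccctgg

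This pattern was present in 978 of 32851 promoters of this length (2.98%), which belong to 936 of 27025 genes (3.46%). RefSeq promoters matched 33 of the 44 genes by symbol, and 17 of those 33 (51.5%) held it. Among measured genes with a promoter, it was present in 12 of 21 that were lower by 1.5-fold and in 2 of 8 others. A match is a description of the sequence, not a bound site.

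Bst2, which encodes tetherin, a protein that holds budding viruses at the membrane, had 145 CPM in C435A members and 227 CPM in WT members (-0.64 [-0.80, -0.49]). Isg15, a ubiquitin-like protein, had 20.4 CPM in C435A and 38.7 CPM in WT (-0.93 [-1.35, -0.52]). Oas3, a sensor of double-stranded RNA, had 6.14 CPM in C435A and 27.7 CPM in WT (-2.17 [-2.90, -1.51]). These rest on few molecules: Oas3 had 22 UMIs in all C435A members and 116 in all WT members. Irf7, here as counted in member barcodes, had 37 UMIs in C435A and 135 in WT, 10.3 and 32.3 CPM (-1.64 [-2.21, -1.11]). The part of free RNA or of RNA from other cells in the Irf7 difference was not tested. Ifi27l2a, an interferon-induced gene, had 152 CPM in C435A and 463 CPM in WT (-1.61 [-1.75, -1.47]). B cell barcodes had 459.7 CPM of Ifi27l2a in C435A and 593 CPM in WT. Not every gene of the pathway moved: Irf9, which carries the signal to the nucleus with its partners, had 34.9 CPM in C435A and 37.1 CPM in WT (-0.09 [-0.44, 0.26]). The Oas, Ifit and Ifi200 families include some near-identical copies, whose reads could be split in counting. Without barcodes that held markers of other cell types (defined with those markers below), 23 of 37 measured genes were lower and 1 higher, with a median of -0.67. Of all 10196 genes measured in that set, 562 were lower and 1153 higher, with a median of 0.11.

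Interferon gamma targets did not share that direction, with 4 higher and 4 lower of 21 measured and a median of 0.23 (-0.02 with barcodes thinned to 2000 UMIs before the rule). Cxcl9, a chemokine for activated T cells, had 52.8 CPM in C435A and 13.9 CPM in WT (1.93 [1.496, 2.38]). Cxcl10, which answers to both kinds of interferon, had 19.3 CPM in C435A and 34.4 CPM in WT (-0.84 [-1.27, -0.41]). Cd274, the gene of PD-L1, had 107 CPM in C435A and 70.1 CPM in WT (0.62 [0.39, 0.84]). Without barcodes holding markers of other types, 1 gene of this list was higher and 4 lower of 21, with a median of 0.03. Of all 10196 genes in that set, 1153 were higher and 562 lower. Cxcl9 was then at 28.6 CPM in C435A and 15.3 CPM in WT (0.91 [0.41, 1.41]), and Cd274 at 0.51, under 1.5-fold. Cxcl10 was at -2.32 [-2.99, -1.70], from 25 UMIs in C435A and 139 in WT. Both chemokine genes were uneven among all members thinned to 2000 UMIs after the rule. The top WT member had 19 UMIs of Cxcl10 (mean 0.071), and the top C435A member 3 (mean 0.022). For Cxcl9 the top member had 5 UMIs in WT (mean 0.017) and 7 in C435A (mean 0.072). The part of single barcodes in these ratios was not tested.

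**Figure D3:**
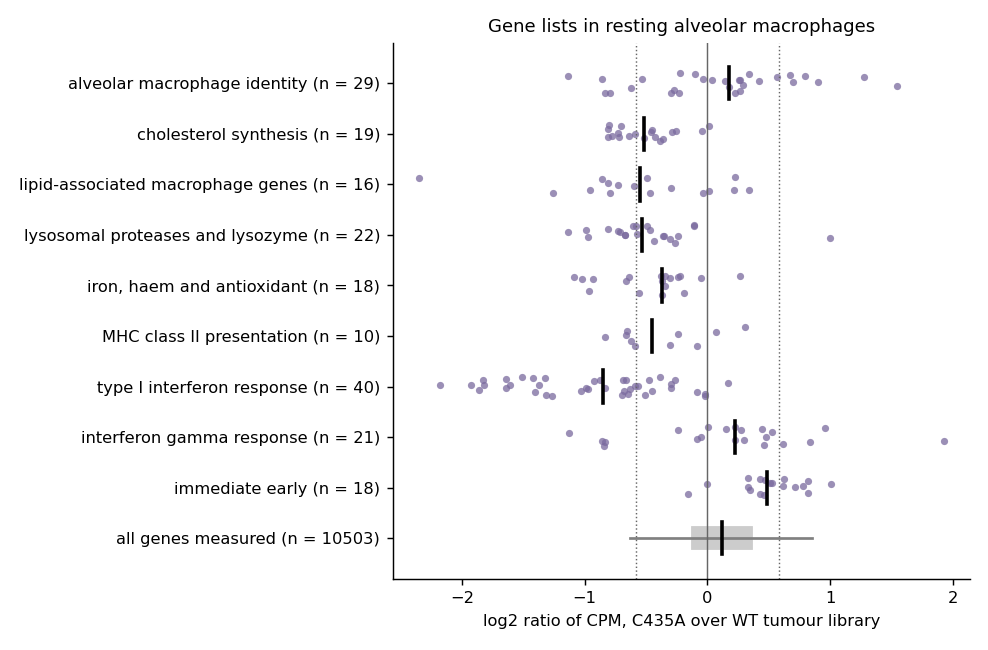
Log2 ratio of CPM (C435A over WT tumour library) of each measured member of 9 gene lists (points), with the list median (black bar). The bottom row gives all 10503 genes as a box (25th to 75th percentile) with a line from the 5th to the 95th; dotted lines mark 1.5-fold. Type I interferon response genes have a median of -0.85 and immediate early genes one of 0.49, beside 0.12 over all genes.

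MHC class II genes, which present antigen to CD4 T cells, were lower in C435A members, but not once barcodes with markers of other cell types were left out. Of 10 measured genes, 5 were lower and none higher, with a median of -0.45. Cd74, the invariant chain, had 1396 CPM in C435A and 2200.0 CPM in WT (-0.66 [-0.71, -0.61]). H2-Eb1, a class II beta chain, had 367 CPM in C435A and 655 CPM in WT (-0.83 [-0.93, -0.74]). Dendritic cell markers moved with them. Of 8 measured, 6 were lower, none was at 0 in either library, and they summed to 39.6 CPM in C435A and 93.0 CPM in WT, with 0 to 55 UMIs a barcode in C435A and 0 to 66 in WT. Without barcodes holding markers of other types, the 10 class II genes had 1 higher, none lower and a median of -0.06, so the call ended. Of all 10196 genes in that set, 1153 were higher and 562 lower.

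Immediate early genes, which answer within minutes to stimulation and also to tissue dissociation, were higher in C435A members. Of 18 measured, 7 were at least 1.5-fold higher and none lower, with a median of 0.49. Fosb had 164 CPM in C435A and 81.5 CPM in WT (1.01 [0.81, 1.21]), and Fos had 462 CPM in C435A and 262 CPM in WT (0.82 [0.71, 0.93]); both are subunits of AP-1. Egr1 had 61.7 CPM in C435A and 34.9 CPM in WT (0.82 [0.51, 1.13]). Atf3, a stress-induced factor, had 40.5 CPM in C435A and 40.6 CPM in WT (-0.01 [-0.34, 0.32]). In dividing barcodes 13 of 18 were higher and 1 lower, with a median of 0.81, beside 12.6% of 9431 genes higher and 6.98% lower. The sources used here give no handling times, and their part in the difference was not tested. The 13 measured heat shock genes had none past 1.5-fold in either direction and a median of -0.16.

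Cytokine and chemokine genes were mixed, with 7 higher and 8 lower of 24 measured and a median of -0.30. Il1b had 143 CPM in C435A and 211 CPM in WT (-0.56 [-0.72, -0.40]), just under 1.5-fold. Ccl9, a chemokine of myeloid cells, had 79.0 CPM in C435A and 202 CPM in WT (-1.36 [-1.56, -1.16]). Cxcl16, a membrane-bound chemokine, had 19.3 CPM in C435A and 67.9 CPM in WT (-1.82 [-2.22, -1.43]). Ccl6, a further myeloid chemokine, had 3567 CPM in C435A and 3817 CPM in WT (-0.10 [-0.13, -0.06]). Of 15 measured checkpoint and costimulatory ligands, 5 were higher and 2 lower, with a median of 0.30. Il15, a cytokine for NK and memory T cells, had 12.8 CPM in C435A and 5.74 CPM in WT (1.16 [0.42, 1.94]). Lgals9, the gene of galectin-9, had 45.5 CPM in C435A and 81.8 CPM in WT (-0.85 [-1.12, -0.57]).

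The other genes named as furthest below were Wfdc17, Mfge8, Crip1, Mgl2 and S100a8. Wfdc17, a whey acidic protein-type gene of activated macrophages, had 224 CPM in C435A and 758 CPM in WT (-1.76 [-1.87, -1.65]). Mfge8, which bridges phagocytes to dying cells, had 16.8 CPM in C435A and 65.8 CPM in WT (-1.97 [-2.40, -1.57]). Crip1 had 522 CPM in C435A and 1428 CPM in WT (-1.45 [-1.53, -1.38]). Mgl2 had 8.65 CPM in C435A and 50.4 CPM in WT (-2.54 [-3.14, -1.995]). This lectin of dendritic cells and interstitial macrophages was present in 8 C435A and 14 WT members, with 54.8% and 24.2% of its UMIs in 1 barcode. S100a8, a neutrophil gene, had 28.2% of its C435A UMIs and 19.1% of its WT UMIs in 1 barcode.

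Of the 10 genes named as furthest above in C435A members, 3 were globin genes, 2 were pigment cell genes, and 4 were cytotoxic lymphocyte genes or chemokines; Acaa1b, described above, was the remaining one. The globin and pigment genes had most of their C435A UMIs in 1 barcode each. Hbb-bs, a beta globin gene, had 399 CPM in C435A and 16.7 CPM in WT, but 88.9% of its C435A UMIs lay in 1 barcode. Hba-a1 and Hba-a2, alpha globin genes, had 93.9% and 88.7% in 1 barcode. The pigment genes Dct and Pmel had 90.5% and 94.2% of their C435A UMIs in 1 barcode of 48584 UMIs, the deepest member, which also had 193 UMIs of Chil3. Without the top barcode of each library, Hbb-bs was at 1.46, Hba-a1 at 1.08, Hba-a2 at 1.09, Dct at -0.38 and Pmel at -0.98 on the log2 scale.

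Gzma, Nkg7 and Ccl5 had UMIs in more C435A than WT members. Gzma, the granzyme A gene, had 145 CPM in C435A and 26.5 CPM in WT (2.45 [2.15, 2.76]), with UMIs in 115 C435A and 29 WT members, and 14.8% of its C435A UMIs and 47.75% of its WT UMIs in 1 barcode of each library. Nkg7 had 53.9 CPM in C435A and 8.13 CPM in WT (2.73 [2.20, 3.30]), and Ccl5, a chemokine of T and NK cells, had 365 CPM in C435A and 96.4 CPM in WT (1.92 [1.76, 2.09]), with 15.2% of its C435A UMIs and 46.15% of its WT UMIs in 1 barcode of each. Without the top barcode of each library, Gzma was at 3.155, Nkg7 at 2.97, Ccl5 at 2.57 and Ccl4 at 1.94 on the log2 scale. Ccl4, a chemokine that macrophages also make, had 74.0 CPM in C435A and 10.8 CPM in WT (2.78 [2.32, 3.27]), with 51.7% of its C435A UMIs in 1 barcode. B cell barcodes also held cytotoxic UMIs, higher in C435A: 184 CPM of Gzma in C435A and 77.6 CPM in WT, and 388 CPM of Ccl5 in C435A and 123 CPM in WT. All 9 measured NK cell markers were higher in C435A members, with sums of 286 CPM in C435A and 56.2 CPM in WT and none of the 10 at 0 in either library. Barcodes had 0 to 133 of these UMIs in C435A and 0 to 105 in WT. A stricter set left out barcodes with 10 or more UMIs of the T, B, NK, neutrophil, dendritic, melanoma or erythroid markers, or 100 or more of the plasma cell markers, which kept 451 C435A and 327 WT members; monocyte markers were not used for it. In it Gzma was at 34.6 CPM in C435A and 7.62 CPM in WT, Acaa1b at 114 and 26.7 CPM, and Spp1 at 643 and 3144 CPM, in C435A and WT members in that order. Ccl4 was then at 0.59 [-0.19, 1.38] and Mgl2 at -1.68 [-2.65, -0.80] on the log2 scale.

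**Figure D4:**
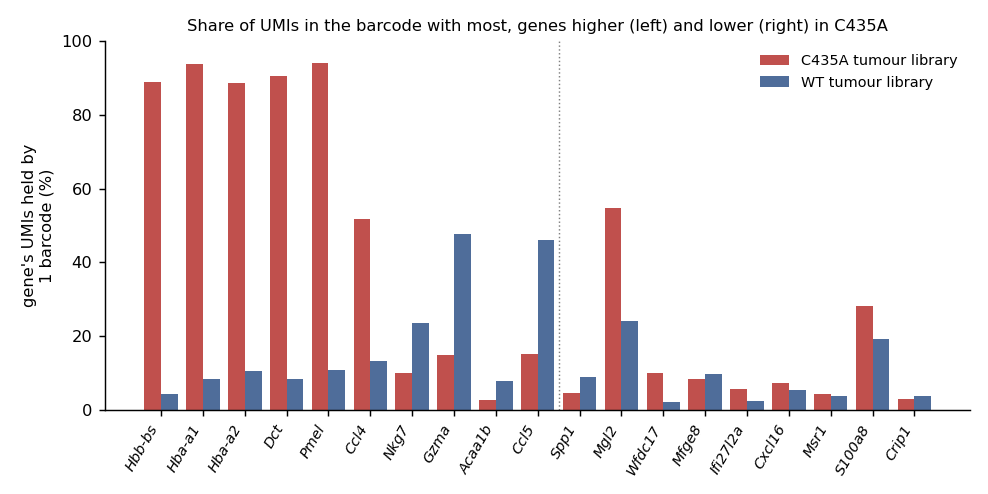
Share of a gene's UMIs (%, bars from 0) held by the single member with the most of them, in the C435A tumour library (left bar of each pair) and the WT tumour library (right bar), for the 10 genes furthest above and 9 of those furthest below. The globin and pigment genes have 88.7% to 94.2% of their C435A UMIs in 1 barcode, and Acaa1b has 2.55%.

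Members also differed among themselves. The Fano factor (variance over mean of UMIs per barcode, 1 for counting error alone) was taken after thinning to 2000 UMIs, which left 461 C435A and 351 WT members. Over 2876 genes with a mean of at least 0.1 UMI in both libraries, its median was 1.05 in C435A and 1.05 in WT, and 67 genes in C435A and 68 in WT were above 2. Some of the widest spread belonged to neutrophil genes: S100a9 had a Fano factor of 35.9 in C435A and 30.9 in WT, with at least 50% of its UMIs in 2 of the C435A and 3 of the WT members. Rn18s-rs5, a ribosomal RNA repeat, led the genes named by spread, with 66.6 in C435A and 63.5 in WT.

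Lyz2 and Fth1 varied across the members, not through a few barcodes. Lyz2 had a 10th percentile of 15, a median of 35 and a 90th percentile of 71 UMIs of 2000 in C435A members, against 23, 60 and 117 in WT members. Fth1 had 15, 31 and 77 in C435A members, against 22, 55 and 106 in WT members. Their correlation over barcodes was 0.54 in C435A (n = 461) and 0.68 in WT (n = 351), as a description of barcodes that share 1 library and depth. Chil3 ran from 10 to 49 UMIs between the same percentiles in C435A members and from 8 to 43 in WT members.

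Class II genes were uneven among all members, which include those holding markers of other cell types. Dendritic cell markers had 10 or more UMIs, before thinning, in 4 C435A and 11 WT members. After thinning, at least 50% of the H2-Eb1 UMIs lay in 13 C435A and 8 WT members. The part of such barcodes in this spread was not tested. A Cd74 UMI was present in 48.6% of thinned C435A members and 56.7% of thinned WT members. Cd74 had a median of 0 UMIs and a 90th percentile of 7 in C435A members, against 1 and 11 in WT members, and its correlation with H2-Aa was 0.80 in C435A and 0.81 in WT. Chil3 and H2-Aa had a correlation of -0.21 in C435A and -0.32 in WT. Spp1 had a Fano factor of 5.99 in C435A and 32.4 in WT, and the member with the most had 27 UMIs of 2000 in C435A and 134 in WT.

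**Figure D5:**
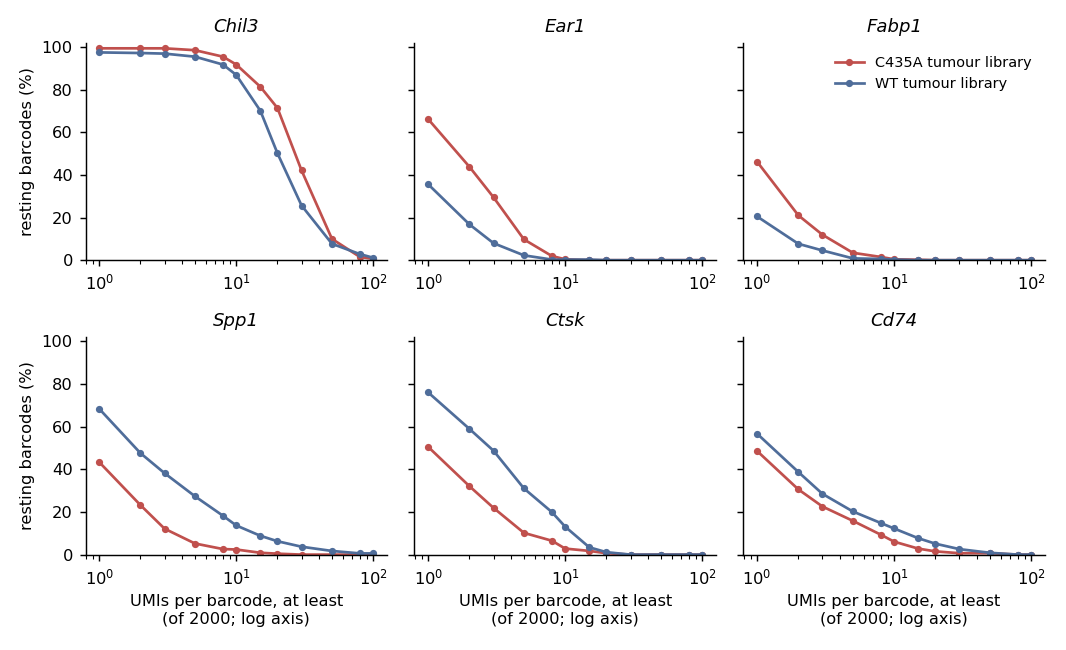
Share of members (%) with at least the number of UMIs on the log axis, after thinning each to 2000 UMIs, in the C435A tumour library (red, n = 461) and the WT tumour library (blue, n = 351). Nearly every member has Chil3; Ear1 and Fabp1, which chose the members, lie higher in C435A up to 8 UMIs, while Spp1 and Ctsk lie lower at each number up to 20 UMIs.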

How the data were processed

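The values used are counts of UMIs per gene and barcode, not normalized, as the authors deposited them; per the file headers they were made with Cell Ranger 7.2.0, and per the submitters' processing notes on GRCm38. Not given in the sources used here are the annotation release, intron setting, rule for calling cells and number of animals. Per the labels' protocols, lungs were digested with collagenase and live CD45-positive cells sorted; BD Rhapsody and 10x Chromium 3′ chemistry are both named there, so the platform is uncertain, and the labels' cell type reads melanoma cell. The matrices held 55357 features and 10373 C435A and 10156 WT barcodes, with 59615672 and 54934397 UMIs; the limits removed 60 and 105 barcodes. Doublets were kept, with their removal by Scrublet (scanpy 1.11.5) as an alternative.

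UMIs were summed over members per library and divided by their total to give CPM, with no scaling by length, since 3′ ends were counted. A gene was measured with at least 20 UMIs over both libraries and called at 1.5-fold. Ratios have exact conditional binomial intervals, shares exact Clopper-Pearson and differences of shares Newcombe intervals, all at 95% and for counting error only. Where a library had 0 UMIs, 3 were used for it in the ratio. B cell barcodes had at least 2 UMIs of Cd79a, fewer than 2 of Cd3d, Cd3e, Cd3g and Trac together, and fewer than 4 of the rule genes. Genes named had at least 50 UMIs over both libraries and 50 CPM in one, and were the 10 highest and 10 lowest by the interval bound nearest 0; against other barcodes, the 10 highest and lowest by the ratio nearest 0 of the libraries; for spread, the 15 highest Fano factors. Ribosomal protein, mitochondrial, immunoglobulin and T cell receptor segment genes were counted but not named, and list members could be named too; some genes the rule names are not reported here. Coordinates are GENCODE M21 on GRCm38 and promoters RefSeq on GRCm38.p6. TMM used edgeR 4.0.16 under R 4.3.3. The interval code was tested on simulated data. The members, lists and genes were chosen with earlier results of these data known. No gene or list was tested for significance, since there was 1 library per genotype. Alternatives were other rule limits, filters, doublet removal, thinning and scaling; leaving out barcodes with markers of other cell types was added after the data were seen.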

Additional observations from a re-analysis of the deposited data

Results flagged for a closer look

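The MHC class II list went opposite ways in dividing and resting barcodes. Its median log2 ratio (C435A over WT) was 0.84 in dividing barcodes, with 6 of 10 measured genes higher and none lower. In resting members it was -0.45, with 5 of 10 lower and none higher. Of all genes measured, 12.6% of 9431 were higher and 6.98% lower in dividing barcodes. In resting members 11.8% of 10503 were higher and 5.74% lower. The difference between dividing and resting barcodes was not tested. Dendritic cell markers moved with the class II list, with a median of 1.78 over 5 measured genes in dividing barcodes and -1.33 over 8 in resting members. Without barcodes holding markers of other cell types, the class II median was -0.15 over 8 measured genes in dividing barcodes (118 in C435A and 142 in WT) and -0.06 over 10 in resting members (451 in C435A and 327 in WT).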

How the results depend on the processing

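No paired analysis was possible because there was 1 library per genotype, and for the same reason no replicate could be left out. Genes higher in C435A by 1.5-fold numbered 822 with TMM and 738 with median of ratios scaling, 4168 with a minimum of 1 UMI and 506 with a minimum of 100; genes lower numbered 956 with median of ratios, 2817 with 1 UMI and 250 with 100 UMIs. Thinning to 2000 UMIs before the rule left out shallower barcodes, with 7873 in C435A and 7218 in WT remaining. Members were then 6.11% of those barcodes in C435A and 4.35% in WT, a difference of 1.76 points. Without thinning, members were 5.855% of barcodes with at least 2000 UMIs in C435A and 4.863% in WT. The immediate early median was 0.35 with that thinning and 0.33 with median of ratios scaling. Dct was at -0.82 and Pmel at -0.42 with the thinning. Without barcodes holding markers of other types, Hbb-bs was at -0.35, Hba-a2 at -0.76, Dct at -0.27 and Pmel at -1.14. The cause of these moves was not tested, beside the top barcodes named above. Of list medians under all alternatives, 245 stayed within the set tolerance and 41 moved. The type I interferon median ranged from -1.22 to -0.61 and the cholesterol synthesis median from -0.67 to -0.48. Only medians near 0 changed sign, in the GM-CSF, fatty acid, interferon gamma, NF-kappaB, alternative activation and cell division lists; of named gene ratios, 212 stayed, 42 moved and 6 reversed. Fano factors grew with depth at 5000 UMIs in most genes (28 of 30 values moved). Depth limits single interferon genes, several of which had under 50 UMIs in C435A.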

Other observations

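Some lists with mixed changes were not described above. Of 11 measured complement genes, 6 were lower in C435A members and 1 higher, with a median log2 ratio of -0.65. The 6 included C1qa, C1qb and C1qc, which the rule caps; of the other 8 measured, 3 were lower and 1 higher, with a median of -0.28. Cfb, complement factor B, had 16.8 CPM in C435A and 49.5 CPM in WT (-1.56 [-2.003, -1.14]). C5ar1, the receptor for C5a, was the 1 higher, with 219 CPM in C435A and 143 CPM in WT (0.61 [0.46, 0.77]). Of 27 measured scavenger and phagocytic receptors, 6 were lower and 1 higher, with a median of -0.18. Clec4e, a receptor for mycobacterial glycolipid, had 53.6 CPM in C435A and 105 CPM in WT (-0.97 [-1.23, -0.73]), whereas Mertk, a receptor for dying cells, had 169 CPM in C435A and 144 CPM in WT (0.23 [0.07, 0.40]).

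Of 26 measured cell division genes, 4 were higher and 2 lower in C435A members, with a median of 0.17. The list summed to 2312 CPM in C435A and 1949 CPM in WT members. Members without Mki67 or Top2a UMIs thus still held cell division transcripts. Ccnd2, the gene of cyclin D2, had 403 CPM in C435A and 212 CPM in WT (0.93). Of 20 measured genes of glycolysis and hypoxia, 4 were higher and 1 lower, with a median of -0.18. Without barcodes holding markers of other cell types, none of 18 was higher and 3 were lower, with a median of -0.45. Of all 10196 genes in that set, 1153 were higher and 562 lower. Bnip3, a hypoxia-induced gene of mitophagy, had 36.8 CPM in C435A and 11.2 CPM in WT (1.71) over all members, but 18.5 CPM in C435A and 12.5 CPM in WT (0.57 [-0.01, 1.15]) without those barcodes.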
